A study of Mus musculus with 10 samples.

Results

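Histone cluster genes are the genes of the Hist1, Hist2, Hist3 and Hist4 clusters, which encode the linker histone H1 and the core histones H2A, H2B, H3 and H4. They were taken as every row of the expression table whose gene symbol starts with Hist1h, Hist2h, Hist3h or Hist4h, and were grouped by the class that the symbol gives. There were 59 such genes among the 13252 genes of the table: 5 of class H1, 14 of H2a, 16 of H2b, 12 of H3 and 12 of H4. The libraries came from mouse regulatory T cells (Treg cells), the CD4 T cells that restrain immune responses. Both groups were sorted as CD4+RFP+ cells. The Helios+ group was GFP+ and the Helios− group GFP−, and the labels tie GFP to Helios, the zinc finger transcription factor encoded by Ikzf2. The labels do not say what RFP reports and give neither strain, age nor treatment. The series' design text speaks of wild-type and knockout cells, while the label of each sample names a sorted population, so the groups below are sorted populations. There were 5 libraries in each group, and whether they came from separate mice or sorts is not stated, so the p-values reflect how far these particular samples spread, and that spread may be technical.

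Nucleosomes are built from pairs of the core histones H2A, H2B, H3 and H4, and linker histones of class H1 bind the DNA between them. Most cluster genes are replication-dependent: they have no introns, are transcribed mainly while DNA is copied, and give mRNAs that end in a conserved stem-loop in place of a poly(A) tail. The stem-loop is bound by SLBP, which takes part in forming the 3′ end and in translating and degrading the mRNA. Some cluster genes are also known to give polyadenylated mRNAs that persist in cells that do not divide. Libraries made from total RNA, as here, can hold both forms.

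The stem-loop was looked for in the GENCODE M21 transcripts because it is the sequence that sets these mRNAs apart. It was searched on the transcript strand as 16 bases: a stem of 6 bases that starts with GG and ends with T, a loop of 4 bases with T in the first and in the third place, and the exact reverse complement of the stem. It was found in 41 of the 59 histone cluster genes and, over the whole annotation, in 69 of 21877 protein-coding genes (0.315%). Many of the 18 members without a match have an annotated transcript that stops with the coding sequence, so no match says only that these letters are not in the annotated transcript. The forms fell out by class, and an example of each of the more frequent forms is given from genes described below. Capitals mark the stem-loop, with 5 transcript bases on either side.
Hist1h1d: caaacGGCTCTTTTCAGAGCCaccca
Hist1h3c: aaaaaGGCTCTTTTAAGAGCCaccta
Hist1h4f: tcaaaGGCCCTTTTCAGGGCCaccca
Hist1h4b: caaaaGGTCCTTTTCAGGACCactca
Hist2h4: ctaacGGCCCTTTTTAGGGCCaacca
The form of Hist1h1d was in 23 members of the classes H1, H2a, H2b and H3 and in 0 of class H4. The form of Hist1h3c was in 5 members, 2 of H2b and 3 of H3, among them Hist1h2bb, Hist1h3e and Hist1h3f. The form of Hist1h4f was in 6 members, all of class H4, and the forms of Hist1h4b and of Hist2h4 were in 2 H4 members each. In the annotated transcript of Hist1h4f the stem-loop was followed by 33 bases, and in that of Hist1h1d by 4884 bases.

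Reads recovered from the table ranged from 4872348 to 6948692 per library. Histone cluster genes took 0.110% ± 0.0274 of them in Helios− and 0.139% ± 0.0210 in Helios+ (SD, n = 5 in each). Ikzf2, the gene behind the sort, had 418 to 572 normalized counts in the 5 libraries labelled Helios− and 9667 to 10906 in the 5 labelled Helios+, a 21.3-fold difference of the means (exact two-sided permutation test over 252 assignments, p = 0.0079, the smallest it can give). The Treg factor Foxp3 had 3526 ± 226 and 3570 ± 201, and Cd4 had 3334 ± 446 and 3208 ± 276, in Helios− and Helios+ (SD, n = 5). Helios− library 3 had the highest level of its group for 35 of the 46 tested histone genes. Without it 10 further members were called higher, and for those described below the value without it is given too. It is set apart because its Helios− levels were high, so leaving it out tends to raise the changes. The share of all tested genes called without it is not given here. Without both libraries of number 3, 21 members were called higher.

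Of the 46 histone cluster genes that could be tested, 15 were higher in Helios+ Treg cells, and all 15 were in the Hist1 cluster. They were Hist1h1b and Hist1h1d of class H1, Hist1h2af and Hist1h2ak of H2a, Hist1h2bb, Hist1h2bh, Hist1h2bm and Hist1h2bn of H2b, Hist1h3c, Hist1h3d, Hist1h3e and Hist1h3f of H3, and Hist1h4b, Hist1h4f and Hist1h4h of H4. A gene was tested where its mean normalized count over the 10 libraries was at least 10, which left out 13 members, and called at an adjusted p under 0.05 (limma, Benjamini-Hochberg over 10718 genes). The 15 are to be read against 14.1% of all tested genes called higher. With limma 0 members were called lower, where 10.7% of all tested genes were. By an unadjusted p under 0.05, 1 member was lower (16.9% of all tested genes), Hist2h2be, edgeR called 0 lower (10.1% of all tested genes) and DESeq2 called 1, again Hist2h2be (11.7% of all genes). In bulk samples, fewer cells that express a gene and less RNA per cell cannot be told apart.

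Changes below are differences in log2(normalized count + 1), with Helios− subtracted from Helios+, and carry their SE. This scale understates the change of low genes. The median change was 0.51 over the 46 tested members and −0.02 over all tested genes. It was positive for 42 members and negative for 4, where 47% of all tested genes had a positive change. In 7 members every Helios+ library was above every Helios− library (11.2% of all tested genes), and in 0 it was the reverse (8.37%). In 21 members the Helios+ library was the higher of each of the 5 pairs with the same replicate number (19.8% of all tested genes). Libraries with the same number deviated together over all tested genes, though for numbers 4 and 5 little more than libraries of different numbers. Over the 46 tested histone genes 3 of the 5 same-number correlations were negative. Over the 44 other than Hist1h2ab and Hist1h3b they were all positive, at 0.31, 0.14, 0.19, 0.21 and 0.41. Those 2 genes were left out after their values were seen, so this turn of sign is no check of the pairing. Correlations between different numbers were not computed for the 44. With the number as a block 25 members were called higher and 1 lower, where 18.9% and 18.5% of all tested genes were. Without Helios− library 3, 25 members were called higher with the group as the only term. Without both libraries of number 4 there were 8, and the other libraries and numbers left out one at a time gave 10 to 21. Leaving out libraries moves calls over all tested genes too, and those shares are not given here. These counts therefore describe how stable the calls were, not a result about histone genes alone.

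**Figure D1:**
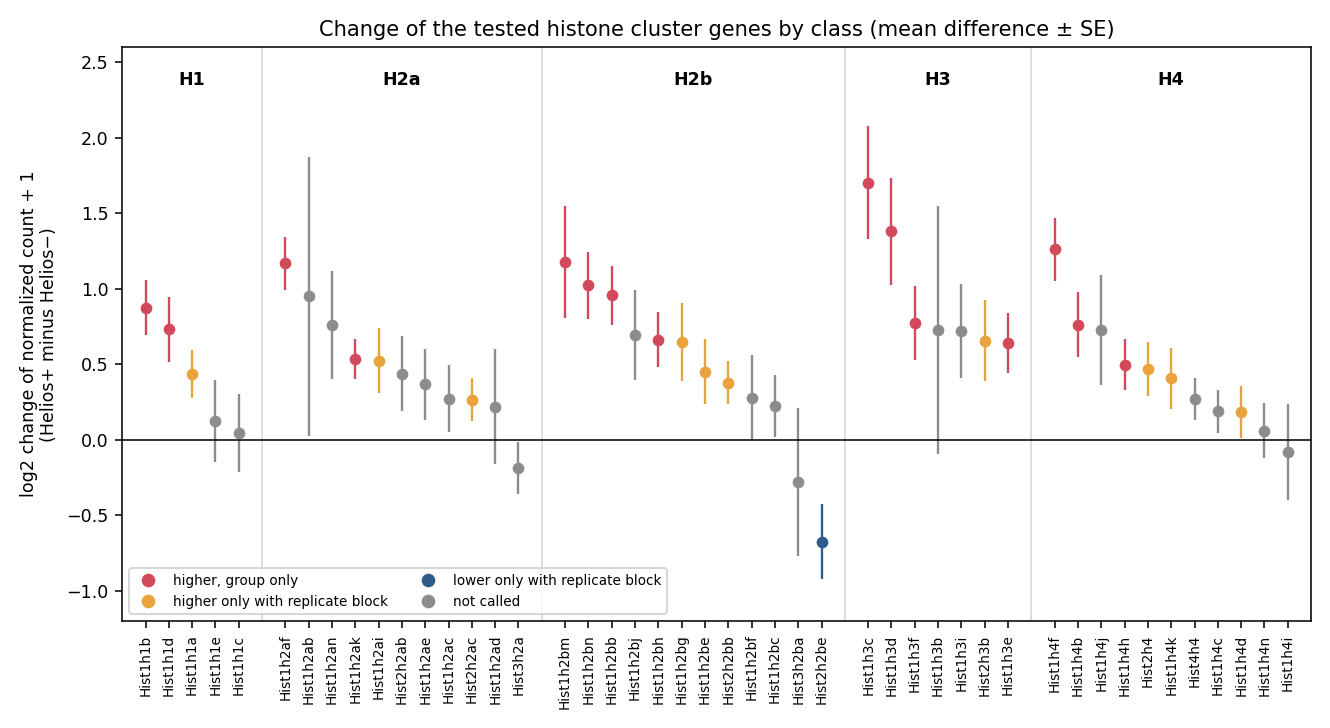
Change of each tested histone cluster gene (y axis: difference in mean log2 of normalized count + 1, positive where Helios+ is higher, with its SE as bars) by class along the x axis, 5 libraries in each group. Most points lie above 0, the 15 genes called with the group only are in red, and the gene lowest on the axis is Hist2h2be at −0.67.

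Of the linker histones, Hist1h1b and Hist1h1d were called higher and the pair with the highest counts, Hist1h1c and Hist1h1e, was not. Linker histones close the turn of DNA on the nucleosome and help to compact chromatin. Normalized counts of Hist1h1b (chromosome 13, 21779883 to 21780625, minus strand, GRCm38) were 49.2, 39.2, 56.8, 48.7 and 43.8 in Helios− libraries 1 to 5. In Helios+ libraries 1 to 5 they were 97.5, 54.4, 88.9, 109 and 99.7. Helios+ library 2 alone lay within the Helios− range, and the other Helios+ libraries lay above it. The mean was 1.89-fold higher and the log2 change was 0.88 ± 0.18 (limma, adjusted p = 0.00197). Hist1h1d (chromosome 13, 23553262 to 23560686, plus strand) had 295, 224, 530, 365 and 436 in Helios− and 460, 508, 696, 581 and 756 in Helios+ libraries. Here Helios− library 3 reached into the Helios+ range, and the Helios+ library was higher in 5 of 5 pairs. The log2 change was 0.73 ± 0.22 (limma, adjusted p = 0.0268, and 1.3e-06 with the replicate block). Without Helios− library 1, Helios+ library 3 or Helios+ library 5 the group-only call was lost, with an adjusted p of up to 0.106.

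Hist1h1c had 951, 1296, 2626, 1690 and 1962 normalized counts in Helios− libraries, and 1224, 1480, 2123, 1622 and 1993 in Helios+ libraries. Hist1h1e had 979, 989, 2420, 1510 and 1791 in Helios− and 1209, 1219, 2027, 1634 and 2012 in Helios+ libraries. For both, the Helios− libraries spanned the whole Helios+ range. Their log2 changes were 0.04 ± 0.26 and 0.13 ± 0.27 (limma, adjusted p = 0.931 and 0.785). For Hist1h1c the sign was not stable: by DESeq2 the change was −0.01, and it was also negative without Helios− library 1 or 2 or Helios+ library 3 or 5, each left out alone. For Hist1h1e it turned to −0.01 without Helios− library 1 or without Helios− library 2. These 2 genes took 47.5% ± 4.34 of the histone reads in Helios− and 41.2% ± 2.71 in Helios+ (SD, n = 5 in each). The remaining linker histone, Hist1h1a, had 41.3 ± 7.17 in Helios− and 55.7 ± 5.59 in Helios+ (SD, n = 5). Its log2 change of 0.44 ± 0.16 missed the threshold (limma, adjusted p = 0.056) and passed it with the replicate block (adjusted p = 0.0316). It was 0.51 and passed the test without Helios− library 3 (limma, adjusted p = 0.0296). Without both libraries of number 3 Hist1h1a was not called.

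The promoter of Hist1h1b is shown because it holds the elements described for linker histone genes. It comes from RefSeq (GRCm38.p6), chr13:21780576-21780875 on the minus strand, from 250 bases before the start of transcription to 50 after it. Capitals mark CCAAT or its reverse complement, the TATA letters TATAAA and the H1 box AAACACA.
Hist1h1b: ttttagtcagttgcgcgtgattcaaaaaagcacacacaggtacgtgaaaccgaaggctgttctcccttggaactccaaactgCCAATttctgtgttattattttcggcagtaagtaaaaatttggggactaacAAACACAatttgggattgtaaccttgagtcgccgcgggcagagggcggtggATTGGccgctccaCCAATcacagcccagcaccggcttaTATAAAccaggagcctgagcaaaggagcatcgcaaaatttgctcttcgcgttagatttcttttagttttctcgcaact
The H1 box, searched on both strands, was in 4 of the 5 linker histone promoters and in 7.18% of the 32851 promoter windows of the same length. The called genes Hist1h1b and Hist1h1d and the uncalled genes Hist1h1c and Hist1h1e all held it, and Hist1h1a did not.

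H2A and H2B form the dimers on the outer faces of the nucleosome. Of class H2a, 11 of 14 members were tested and 2 were called higher (18.2%, near the 14.1% of all tested genes). Hist1h2af (chromosome 13, 23533906 to 23534304, plus strand) had 46.9, 36.0, 66.6, 45.3 and 38.9 normalized counts in Helios− and 116, 98.7, 105, 128 and 78.8 in Helios+ libraries. All Helios+ libraries lay above all Helios− libraries, the mean was 2.26-fold higher and the log2 change was 1.17 ± 0.18 (limma, adjusted p = 0.000124). Of the 50-base windows of its transcript, 94.0% also occurred in another gene, most often Hist1h2ad, so reads could have been split between such copies. Hist1h2ak (chromosome 13, 21753435 to 21753827, minus strand) had 86.7, 92.1, 142, 103 and 113 in Helios− and 165, 149, 179, 135 and 144 in Helios+ libraries. Only Helios− library 3 reached above the lowest Helios+ library, and the log2 change was 0.54 ± 0.13 (limma, adjusted p = 0.00788). Of the 50-base windows of Hist1h2ak, 57.0% also occurred in another gene, most often Hist1h2ao. The median change of the 11 tested H2a genes was 0.44. With the replicate block 4 of the 11 were called higher, against 18.9% of all tested genes.

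The H2a genes with the highest counts were Hist2h2ac and Hist3h2a, and neither was called. Hist2h2ac had 294, 319, 535, 401 and 403 normalized counts in Helios− and 438, 367, 502, 506 and 500 in Helios+ libraries. Its log2 change was 0.27 ± 0.14 (limma, adjusted p = 0.209; with the replicate block, 0.0081). It was 0.39 and called without Helios− library 3 (limma, adjusted p = 0.022). Without both libraries of number 3 Hist2h2ac was not called. Hist3h2a had 117, 147, 257, 169 and 201 in Helios− and 125, 166, 156, 150 and 162 in Helios+ libraries. The Helios+ libraries lay inside the Helios− range, and the log2 change was −0.19 ± 0.17 (limma, adjusted p = 0.476).

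Class H2b held 4 called members of 12 tested (33.3%, against 14.1% of all tested genes), and 7 with the replicate block (against 18.9%). Hist1h2bb (chromosome 13, 23746734 to 23747241, plus strand) had 21.1, 34.9, 48.1, 37.6 and 38.0 normalized counts in Helios− and 56.6, 73.6, 77.8, 69.0 and 67.2 in Helios+ libraries. Hist1h2bn (chromosome 13, 21754123 to 21754503, plus strand) had 25.8, 20.1, 50.2, 31.6 and 35.0 in Helios− and 50.3, 54.4, 71.8, 69.0 and 81.1 in Helios+ libraries. The groups did not overlap for either, although for Hist1h2bn Helios− library 3 lay just under Helios+ library 1. Of the 50-base windows of Hist1h2bn, 86.4% also occurred in another gene, most often Hist1h2bq, so its reads could have been split between copies. The log2 changes were 0.96 ± 0.19 for Hist1h2bb and 1.02 ± 0.22 for Hist1h2bn (limma, adjusted p = 0.00173 and 0.0029). Hist1h2bh had 24.8 ± 4.49 in Helios− and 39.8 ± 6.14 in Helios+ (SD, n = 5), also without overlap, and a log2 change of 0.66 ± 0.18 (limma, adjusted p = 0.0149). Hist1h2bm had 19.9, 3.18, 15.3, 14.5 and 13.6 in Helios− and 29.3, 25.9, 18.8, 31.1 and 35.9 in Helios+ libraries. Its lowest Helios+ library lay just under its highest Helios− library, and the log2 change was 1.18 ± 0.37 (limma, adjusted p = 0.0301). That call was lost without Helios+ library 1, 2, 4 or 5, each left out alone, with an adjusted p of up to 0.0775. With the replicate block and all libraries the adjusted p of Hist1h2bm was 0.00358 (limma).

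The H2b genes with the highest counts, Hist2h2bb and Hist1h2be, had positive changes that did not pass the test with all 10 libraries. Hist2h2bb had 115, 131, 217, 166 and 175 normalized counts in Helios− and 191, 189, 221, 209 and 214 in Helios+ libraries, so that Helios− library 3 alone lay among the Helios+ libraries. Its log2 change was 0.38 ± 0.14 (limma, adjusted p = 0.0665; with the replicate block, 0.0035). Hist1h2be had 94.6 ± 36.6 in Helios− and 124 ± 20.8 in Helios+ (SD, n = 5), a log2 change of 0.45 ± 0.21 (limma, adjusted p = 0.148; with the replicate block, 0.00929). Both were called without Helios− library 3, with changes of 0.50 for Hist2h2bb and 0.64 for Hist1h2be (limma, adjusted p = 0.0066 and 0.00941).

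Hist1h2ak and Hist1h2bn are neighbours that are transcribed away from each other, and their promoter windows largely coincide. Among members with a RefSeq promoter window there were 7 such pairs of an H2A and an H2B gene, with 164 to 249 bases between the starts. Of these, Hist1h2ak and Hist1h2bn were the one pair with both genes called. In the other 6 no gene was called with the group only and all libraries, and 4 of them had a gene below the filter. Hist1h2bg and Hist1h2ai of these pairs were called higher with the replicate block (limma, adjusted p = 0.00198 and 0.0432). Without Helios− library 3, Hist1h2bg, Hist1h2ai and Hist1h2bj were called higher with the group only (limma, adjusted p = 0.00954, 0.00938 and 0.037). The GENCODE gene starts gave 3 further pairs within 400 bases, Hist1h2ac with Hist1h2bc, Hist2h2ac with Hist2h2be and Hist3h2bb-ps with Hist3h2a. No gene of these was called with the group only and all libraries. The window of Hist1h2bn, RefSeq GRCm38.p6 chr13:21753826-21754125 on the plus strand, is given here because both called genes are read from it. Capitals mark CCAAT and TATAAA on either strand.
Hist1h2bn: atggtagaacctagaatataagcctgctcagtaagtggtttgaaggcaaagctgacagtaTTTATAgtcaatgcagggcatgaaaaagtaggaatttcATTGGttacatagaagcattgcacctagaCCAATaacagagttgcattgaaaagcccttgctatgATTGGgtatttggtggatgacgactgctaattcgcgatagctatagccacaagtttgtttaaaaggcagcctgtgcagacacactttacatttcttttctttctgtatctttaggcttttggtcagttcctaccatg
CCAAT stood in both orientations between the starts of the 2 genes.

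H3 and H4 form the core tetramer of the nucleosome, and the H3 tail carries many of the known chromatin marks. Class H3 had 4 called members of the 7 tested (57.1%, against 14.1% of all tested genes), and all 7 changes were positive, from 0.64 to 1.70, with a median of 0.73. Hist1h3c (chromosome 13, 23744973 to 23745602, minus strand) had 8.20, 5.29, 4.37, 3.42 and 11.7 normalized counts in Helios− and 22.0, 29.3, 19.7, 10.7 and 37.1 in Helios+ libraries. Hist1h3d (chromosome 13, 23575763 to 23577011, plus strand) had 10.5, 5.29, 12.0, 5.99 and 9.73 in Helios− and 13.6, 15.9, 23.9, 53.4 and 24.3 in Helios+ libraries. The groups did not overlap for Hist1h3d, and for Hist1h3c a single pair of libraries, Helios− 5 and Helios+ 4, overlapped. The means were 3.60-fold higher for Hist1h3c and 3.01-fold higher for Hist1h3d, with log2 changes of 1.70 ± 0.37 and 1.38 ± 0.36 (limma, adjusted p = 0.00299 and 0.00941). Both had a Helios− mean under 10 and passed the filter on low values through their Helios+ level. Their being among the tested genes is therefore not independent of their direction. The same limit holds for the class count of 4 of 7 and for the top of the range of changes, since both include these genes. The fold of Hist1h3d is raised by Helios+ library 4, at 53.4 against 13.6 to 24.3 in the other Helios+ libraries. Without both libraries of number 4 Hist1h3d was not called.

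Hist1h3e and Hist1h3f had the highest counts of the class. Hist1h3e (chromosome 13, 23561534 to 23562369, minus strand) had 55.1, 57.2, 121, 82.1 and 76.9 normalized counts in Helios− and 118, 96.2, 158, 116 and 110 in Helios+ libraries. Hist1h3f (chromosome 13, 23544052 to 23545312, plus strand) had 19.9, 22.2, 51.3, 40.2 and 31.1 in Helios− and 52.4, 39.3, 70.9, 57.3 and 53.3 in Helios+ libraries. For both, Helios− library 3 lay above the lowest Helios+ library, and the Helios+ library was higher in 5 of 5 pairs. The log2 changes were 0.64 ± 0.20 and 0.77 ± 0.25 (limma, adjusted p = 0.0261 and 0.0305). The 2 genes share sequence: 73.4% of the 50-base windows of Hist1h3e occurred in another gene, most often Hist1h3f. Leaving out single libraries ended the call of Hist1h3e in 2 of 10 cases (Helios− 2 and Helios+ 3, adjusted p up to 0.0733). It ended that of Hist1h3f in 7 of 10 (adjusted p up to 0.0837). With the replicate block and all libraries the adjusted p was 0.00022 for Hist1h3e and 0.00138 for Hist1h3f (limma). The promoter of Hist1h3c, the member with the highest log2 change, is RefSeq GRCm38.p6 chr13:23745472-23745771 on the minus strand, with CCAAT in capitals.
Hist1h3c: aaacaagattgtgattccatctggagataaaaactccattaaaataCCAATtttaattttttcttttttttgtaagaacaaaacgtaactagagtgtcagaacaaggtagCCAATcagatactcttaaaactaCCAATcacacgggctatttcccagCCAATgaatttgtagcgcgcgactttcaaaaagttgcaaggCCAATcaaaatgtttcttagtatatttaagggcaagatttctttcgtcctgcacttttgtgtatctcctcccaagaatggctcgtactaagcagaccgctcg

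Class H4 had 3 called members of 11 tested (27.3%, against 14.1% of all tested genes), and 6 with the replicate block (against 18.9%). Hist1h4f (chromosome 13, 23551258 to 23551648, minus strand) had 22.3, 13.8, 16.4, 12.0 and 22.4 normalized counts in Helios− and 40.9, 42.7, 39.3, 48.6 and 38.2 in Helios+ libraries. Every Helios+ library was well above every Helios− library, the mean was 2.42-fold higher and the log2 change was 1.26 ± 0.21 (limma, adjusted p = 0.000298). Hist1h4b (chromosome 13, 23757013 to 23757409, plus strand) had 12.9, 13.8, 13.1, 19.7 and 20.4 in Helios− and 30.4, 30.1, 26.5, 23.3 and 26.7 in Helios+ libraries. These also did not overlap, and the log2 change was 0.76 ± 0.21 (limma, adjusted p = 0.0152), but 56.2% of its exon bases lie within exons of 4930558J22Rik in the annotation. Hist1h4h had 108 ± 29.4 in Helios− and 151 ± 28.3 in Helios+ (SD, n = 5), a log2 change of 0.50 ± 0.17 (limma, adjusted p = 0.0419). Leaving out any one of 8 of the 10 libraries ended that call, all except Helios− 3 and Helios+ 1, with an adjusted p of up to 0.116. With the replicate block and all libraries the adjusted p of Hist1h4h was 0.00101 (limma).

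Hist1h4d and Hist1h4c, with the highest counts of class H4, were not called. Hist1h4d had 392, 527, 774, 466 and 584 normalized counts in Helios− and 444, 612, 742, 613 and 669 in Helios+ libraries. Hist1h4c had 160, 167, 268, 186 and 198 in Helios− and 189, 204, 273, 189 and 254 in Helios+ libraries. The groups overlapped widely for both, and the log2 changes were 0.18 ± 0.17 and 0.19 ± 0.14 (limma, adjusted p = 0.494 and 0.389). With the replicate block Hist1h4d was called (adjusted p = 0.024).

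**Figure D2:**
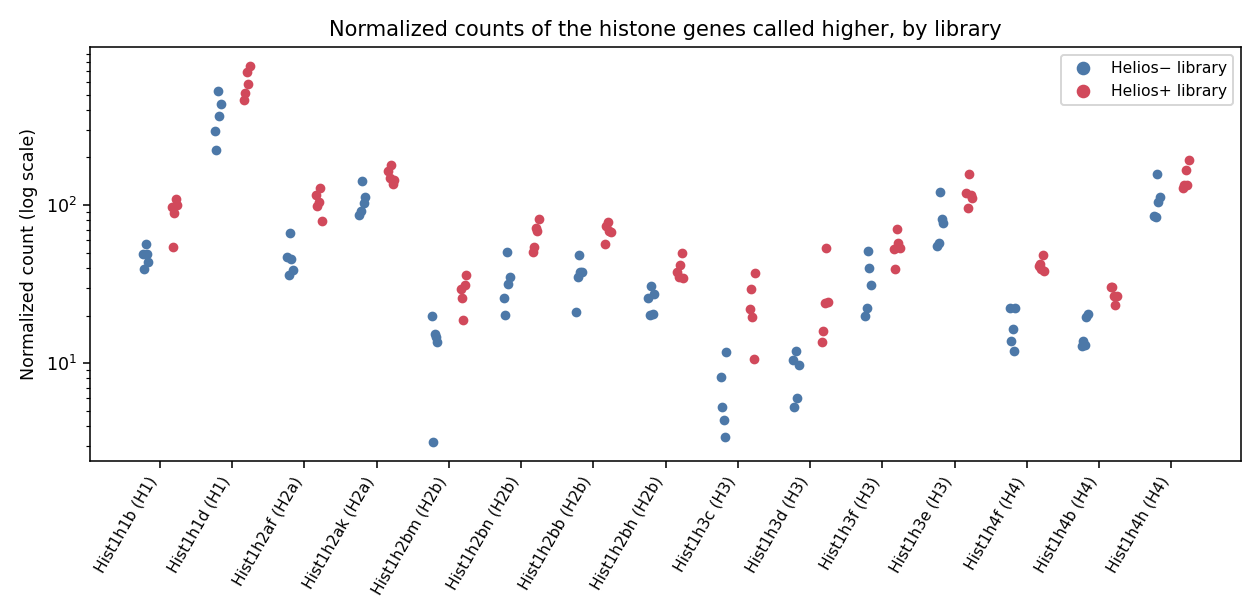
Normalized count (y axis, log scale) of the 15 histone genes called higher, 1 point for each of the 5 Helios− (blue) and 5 Helios+ (red) libraries, ordered by class. The groups do not overlap for Hist1h2af, Hist1h2bb, Hist1h2bn, Hist1h2bh, Hist1h3d, Hist1h4f and Hist1h4b.

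Summed over the members of a class, tested or not, the ratio of Helios+ to Helios− was highest for H3. The 12 H3 genes together had 189, 157, 285, 200 and 226 normalized counts in Helios− libraries 1 to 5 and 325, 335, 420, 332 and 417 in Helios+ libraries 1 to 5. All Helios+ sums were above all Helios− sums, and the mean sum was 1.73 times that of Helios−. For class H2b the ratio was 1.35 (608 ± 174 in Helios− and 818 ± 88.1 in Helios+, SD, n = 5), for H2a 1.29 (987 ± 215 and 1270 ± 168.4) and for H4 1.21 (1195 ± 280.2 and 1448 ± 187), and the groups overlapped in each. For class H1 it was 1.10 (3702 ± 1365 and 4054 ± 894), with 4 of 5 pairs higher in Helios+. Leaving out Hist1h1c, the H1 gene with the highest count, gave 1.18. These sums are descriptions without a test, and the differences between classes were not tested.

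**Figure D3:**
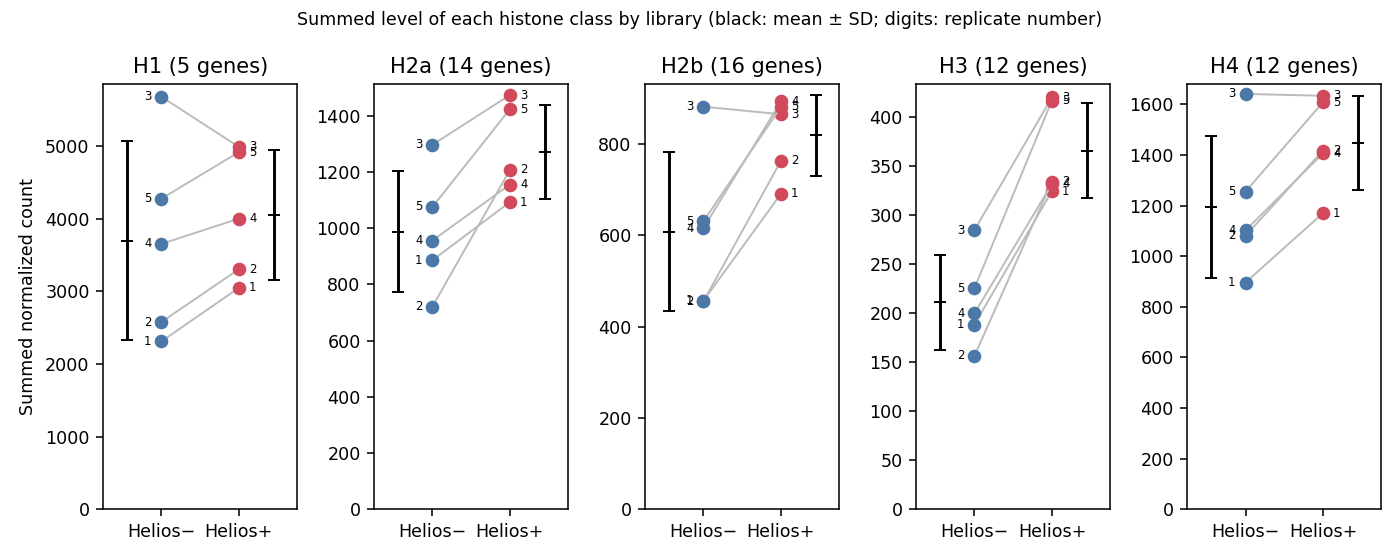
Summed normalized count of each histone class (y axis from 0, 1 panel per class) in the Helios− (blue) and Helios+ (red) libraries, with lines joining equal replicate numbers and black bars for the mean ± SD of 5 libraries. The H3 sums separate, at 157 to 285 against 325 to 420, and Helios− library 3 is the highest Helios− library in every panel.

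Called genes were counted by cluster, and the difference between clusters was not tested. The Hist1 cluster on chromosome 13 (21715763 to 23764406) held 46 members. Of these, 37 were tested and 15 called higher (40.5%, against 14.1% of all tested genes). Split at gaps of over 100000 bases, its genes formed 3 groups. The group at 21715763 to 21832196 had 4 called of 10 tested (40%). The group at 22035164 to 22043676 had 0 of 2, and the group at 23531050 to 23764406 had 11 of 25 (44%). None of the 6 tested genes of the Hist2 cluster on chromosome 3 (96219865 to 96270132) was called with the group only and all libraries. With the replicate block 4 were called higher and 1 lower, where 18.9% and 18.5% of all tested genes were. Without Helios− library 3, with the group as the only term, 4 of the 6 were called higher: Hist2h2ac, Hist2h2bb, Hist2h3b and Hist2h4. Without both libraries of number 3, Hist2h2bb and Hist2h4 were called higher, and Hist2h2ac and Hist2h3b were not. Hist2h4 averaged 97.0 ± 30.0 normalized counts in Helios− and 130 ± 16.3 in Helios+ (SD, n = 5), a log2 change of 0.47 ± 0.18 (limma, adjusted p = 0.0731; with the block, 0.00623). Hist2h3b had a log2 change of 0.66 ± 0.27 (adjusted p = 0.0903; with the block, 0.028) and Hist2h2ab one of 0.44 ± 0.25 (adjusted p = 0.227; with the block, 0.148), both by limma. The changes of Hist2h4 and Hist2h3b without Helios− library 3 alone were 0.61 and 0.81 (limma, adjusted p = 0.00938 and 0.0318). Exons of Hist2h3b and Hist2h2bb lie wholly within exons of Gm20628 in the annotation. Hist2h2aa1, Hist2h3c1 and Hist2h3c2 were below the filter, at 0 to 10.9 normalized counts in any library.

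Hist2h2be, an H2B gene known for polyadenylated transcripts, had the lowest change of the tested members. It had 43.3, 30.7, 63.3, 37.6 and 44.8 normalized counts in Helios− and 16.8, 21.7, 24.8, 37.9 and 37.1 in Helios+ libraries. The Helios− library was higher in 4 of 5 pairs, and Helios+ libraries 4 and 5 lay within the Helios− range. The mean was 1.59-fold higher in Helios−, with a log2 change of −0.67 ± 0.25 that missed the threshold (limma, adjusted p = 0.0606) and passed it with the replicate block (adjusted p = 0.0167). None of its 50-base windows occurred in another gene. Hist3h2ba of the Hist3 cluster on chromosome 11 had 14.3 ± 7.66 in Helios− and 11.8 ± 7.04 in Helios+ (SD, n = 5; log2 change −0.28 ± 0.49, limma, adjusted p = 0.737). The annotated pseudogene Hist3h2bb-ps was below the filter, at 6.35 ± 3.03 and 3.64 ± 1.77 (SD, n = 5). Hist4h4, the one Hist4 gene (chromosome 6), had 74.4 ± 11.6 in Helios− and 89.9 ± 12.7 in Helios+ (SD, n = 5; log2 change 0.27 ± 0.14, limma, adjusted p = 0.183).

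Hist2h2be is one of 12 members on a list of cluster genes known for polyadenylated transcripts in cells that do not divide. Of its 10 tested genes, 0 were called in either direction by limma (background 24.8% in either direction), and 4 of the 10 had a negative change, which are the 4 negative changes over the 46 tested members. Their median change was 0.13. Of the other 36 tested members, 15 were called higher (41.7%, against 14.1% of all tested genes). All 36 changes were positive, with a median of 0.65. The log2 change was 0.69 ± 0.30 for Hist1h2bj, 0.27 ± 0.22 for Hist1h2ac, 0.22 ± 0.21 for Hist1h2bc and −0.08 ± 0.32 for Hist1h4i (limma, adjusted p = 0.108, 0.422, 0.485 and 0.887). Without Helios− library 3 Hist1h2bj was called, at 0.88 (limma, adjusted p = 0.037), and Hist1h4i was at 0.08, so its sign turned. With the replicate block Hist1h2be was called higher and Hist2h2be lower. The tested members of this list had means from 13.1 to 1697 normalized counts, so they were not all low genes. The list was chosen with earlier results of these data known, the difference between the lists was not tested, and the table does not separate polyadenylated from other transcripts of a gene.

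**Figure D4:**
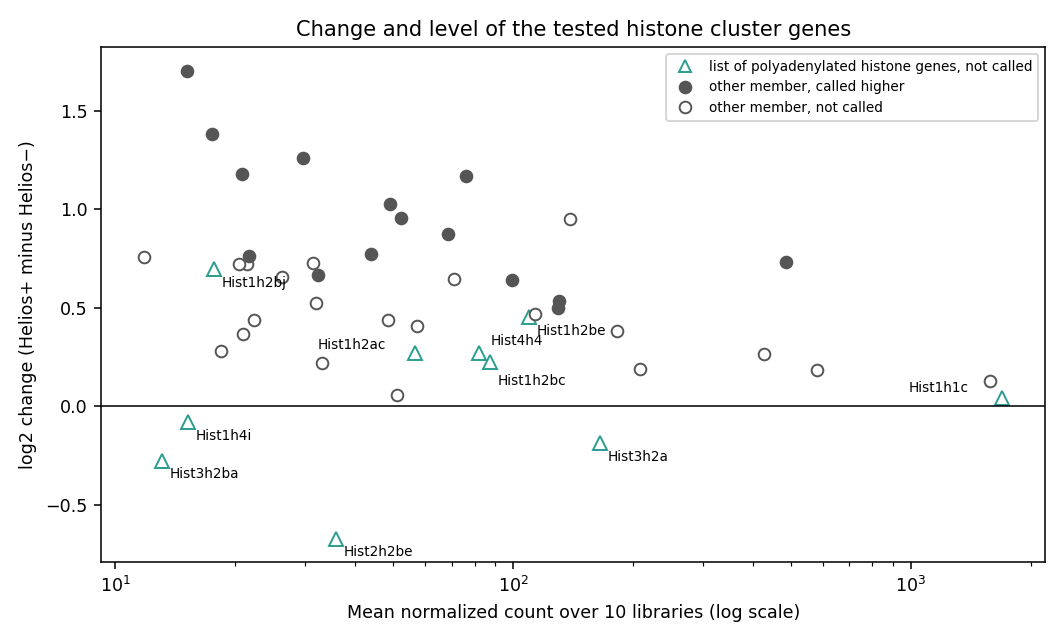
Log2 change (y axis, positive where Helios+ is higher) and mean normalized count of all 10 libraries (x axis, log scale) of the 46 tested histone cluster genes. Triangles are the 10 tested genes of the polyadenylated list, of which 0 are called and 4 lie below 0, and filled circles are the 15 genes called higher.

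The distance from the stem-loop to the annotated transcript end was set beside the changes, with limits of 60 and 300 bases chosen after the values were seen. Members with at most 60 bases after it had 5 called of 12 tested and a median change of 0.71. Members with 61 to 300 bases had 1 of 4 and a median of 0.51. Members with over 300 bases had 5 of 16 and a median of 0.36. Members without a match had 4 of 14 and a median of 0.53. Of all tested genes, 14.1% were called higher. These are descriptions of annotated ends, not of the ends used in these cells.

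Promoter windows were found for 53 of the 59 members under the current RefSeq symbols. CCAAT, on either strand, stood in 45 of the 53, against 37.4% of all windows. It was in all 42 windows of the classes H1, H2a, H2b and H3 and in 3 of 11 of class H4. TATAAA, on either strand and at any place in the window, was in 32 of 53 (13.6% of all windows). These counts take the first window of a gene. The octamer ATTTGCAT, known from H2B promoters, was in 5 of 13 H2b and 6 of 14 H2a windows and in 0 of the other classes (1.74% of all windows). The second window of Hist1h2be, the one member with more than 1, also held it, which makes 6 of 13 H2b genes. Of the called H2b genes Hist1h2bb and Hist1h2bm held the octamer, and Hist1h2bh and Hist1h2bn did not. The window of Hist1h4f, RefSeq GRCm38.p6 chr13:23551619-23551918 on the minus strand, is shown as an H4 promoter without CCAAT, with TATAAA in capitals.
Hist1h4f: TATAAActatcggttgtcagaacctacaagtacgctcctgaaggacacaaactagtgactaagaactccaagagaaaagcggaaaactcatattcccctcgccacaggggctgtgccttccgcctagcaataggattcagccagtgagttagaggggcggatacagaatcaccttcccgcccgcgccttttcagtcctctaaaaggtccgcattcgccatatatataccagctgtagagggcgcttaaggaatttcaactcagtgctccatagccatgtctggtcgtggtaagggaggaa
A match is a description of the letters, and no binding was measured.

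A pair of neighbouring genes, Hist1h2ab and Hist1h3b on chromosome 13 (23751126 to 23751598 and 23752267 to 23752886), varied widely between libraries of the same group. Hist1h2ab had 176, 16.9, 28.4, 88.1 and 163 normalized counts in Helios− and 43.0, 242, 289, 37.9 and 304 in Helios+ libraries. Hist1h3b had 49.2, 3.18, 14.2, 14.5 and 32.1 in Helios− and 13.6, 59.4, 56.4, 4.86 and 67.2 in Helios+ libraries. Libraries high for the first gene were high for the other: Helios− 1 and 5 and Helios+ 2, 3 and 5. In both genes the Helios+ library was higher in 3 of 5 pairs, and the log2 changes were 0.95 ± 0.92 and 0.73 ± 0.82 (limma, adjusted p = 0.524 and 0.587). The 2 genes do not share their annotated exons, but 58.0% and 60.4% of their 50-base windows occur in other genes. Leaving out Hist1h3b left the ratio of the H3 sums at 1.73, and leaving out Hist1h2ab moved that of the H2a sums from 1.29 to 1.22.

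**Figure D5:**
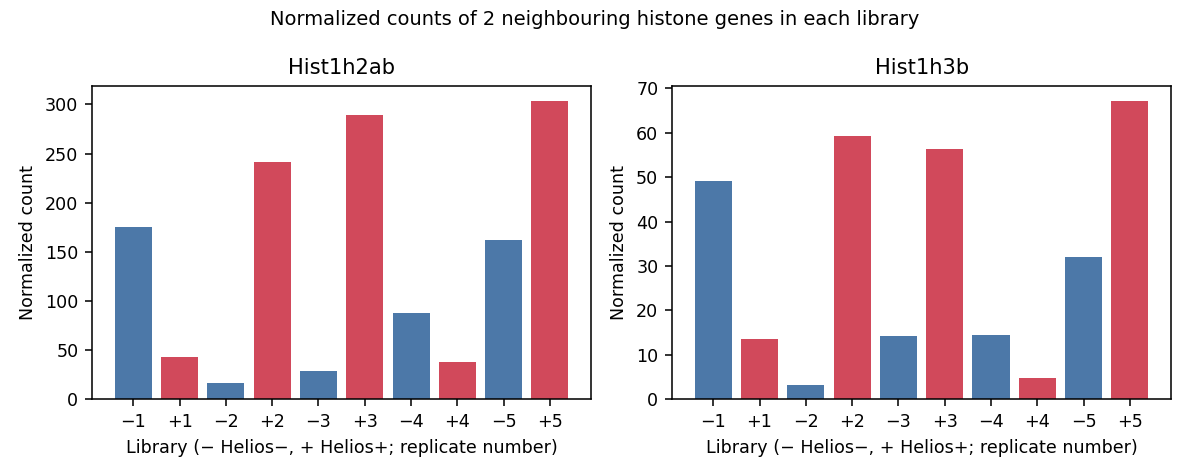
Normalized count (y axis from 0) of Hist1h2ab and Hist1h3b in each of the 10 libraries, with Helios− in blue and Helios+ in red, ordered by replicate number. Both genes are high in Helios− 1 and 5 and in Helios+ 2, 3 and 5, so that the groups overlap.

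Not all members could be told from their copies. In 28 members at least 50% of the exon bases or of the 50-base windows were shared with another gene, and how such reads were counted is not given in the sources used here. Among the 31 members with less, 27 were tested. Of these, 10 were called higher (37.0%) and 0 lower, against 14.1% and 10.7% of all tested genes. The 13 members below the filter were low throughout. Of these, 11 had a higher mean in Helios+ and 2 a lower one, and without the filter 3 of them, Hist1h2bk, Hist1h3a and Hist1h4a, were called higher and 0 lower (13.6% and 8.93% of all 13252 genes). Hist1h3a had 1.17 to 8.47 normalized counts in Helios− and 10.5 to 17.4 in Helios+ libraries, and its groups did not overlap. Lower genes were called higher more often in the whole table too: 19.4% of genes with a mean of 10 to 50, 15.1% of those from 50 to 200 and 11% of those above. Histone genes in these ranges had 8 of 23, 6 of 17 and 1 of 6 called.

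Genes that work with histones were examined from lists chosen with earlier results of these data known. Replacement histone variants are made outside DNA replication and from polyadenylated mRNAs. Of 9 tested variants, 3 rose, 1 fell and 5 were not called, and 5 rose with the replicate block. Of all tested genes 14.1% were called higher and 10.7% lower, and 18.9% higher with the block. H2afz, which encodes the variant H2A.Z, rose from 186 ± 37.2 to 481 ± 28.7 normalized counts (SD, n = 5; log2 change 1.38 ± 0.12, limma, adjusted p = 3.33e-07). Cenpa, the H3 variant of centromeres, rose by 0.54 ± 0.14 and H1f0, a linker histone of cells that do not divide, by 0.53 ± 0.15 (limma, adjusted p = 0.0112 and 0.0171). H2afj, named because it was the one that fell, had 247 ± 17.3 in Helios− and 194 ± 28.1 in Helios+ (SD, n = 5; limma, adjusted p = 0.0184).

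Of 16 tested genes for histone mRNA synthesis and 3′ end processing, 1 rose, 1 fell and 14 were not called, against 14.1% of all tested genes called higher and 10.7% lower. With the replicate block 5 fell, where 18.5% of all tested genes did. Slbp, whose protein binds the stem-loop, had 204, 236, 238, 254 and 210 normalized counts in Helios− and 269, 348, 384, 340 and 344 in Helios+ libraries. The groups did not overlap, and the log2 change was 0.55 ± 0.10 (limma, adjusted p = 0.000596). Ncbp1, a subunit of the nuclear cap-binding complex, fell by 0.24 ± 0.06 on the log2 scale (limma, adjusted p = 0.0112), and Dicer1, the RNase of small RNA processing, had a change of −0.16 ± 0.06 (adjusted p = 0.0855, limma).

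Of 19 tested histone chaperones and assembly factors, 4 rose, 3 fell and 12 were not called, where 14.1% of all tested genes were higher and 10.7% lower. Both shares lay near that background. Chaf1a, the large subunit of chromatin assembly factor 1, which deposits new H3 and H4 at replication forks, rose from 30.2 ± 6.35 to 81.8 ± 18.8 (SD, n = 5; log2 change 1.41 ± 0.19, limma, adjusted p = 3.83e-05). Mms22l, a partner of Tonsl at replication forks, rose by 0.75 ± 0.12, and Nasp, a chaperone of H3 and H4, had a change of −0.27 ± 0.07 (limma, adjusted p = 0.000267 and 0.0115). The others called were Nap1l1 and Tonsl, which rose, and Ubn1 and Nap1l4, which fell; they are named after their values were seen.

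Cell cycle genes also differed between the groups. Of 29 tested S phase genes 14 rose and 0 fell (14.1% and 10.7% of all tested genes), and their summed level was 4169 ± 284 in Helios− and 5265 ± 208 in Helios+ (SD, n = 5). Mcm6, of the replicative helicase, rose by 0.73 ± 0.07, Uhrf1 by 1.51 ± 0.19 and Tyms, the thymidylate synthase, by 1.19 ± 0.17 (limma, adjusted p = 1.54e-06, 1.9e-05 and 7.58e-05). Of 22 tested G2 and M phase genes 12 rose and 0 fell, with summed levels of 1366 ± 159 and 2493 ± 270.0 (SD, n = 5). Top2a, the topoisomerase of mitotic chromosomes, rose by 1.15 ± 0.11 and the mitotic motors Kif11 and Kif20a by 1.56 ± 0.18 and 1.25 ± 0.18 (limma, adjusted p = 9.95e-07, 8.66e-06 and 7.87e-05). The part of these differences in the levels of the histone genes was not tested.

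Markers of other cells were present in both groups. The 7 B cell markers summed to 1717 to 2412 normalized counts in Helios− and 1499 to 2124 in Helios+ libraries, with none at 0 and Ebf1 lower in Helios+. The 6 macrophage and monocyte markers in the table summed to 202 to 341 and 283 to 520, with Csf1r higher in Helios+. Of the 3 tested plasma cell markers only Prdm1 was higher in Helios+, and 0 of the tested CD8 T cell, NK cell and erythroid markers were called. In bulk samples the cell that expressed a marker cannot be told, so Prdm1 is no measure of plasma cells here. Of the 7 T cell and Treg markers Il2ra and Ctla4 were higher in Helios+. With the group only, 14.1% of all tested genes were higher and 10.7% lower. With the replicate block 4 of 7 tested B cell markers and 1 of 2 CD8 T cell markers were lower, where 18.5% of all tested genes were. Higher with the block were 2 of 5 tested macrophage and monocyte markers and 4 of 7 T cell and Treg markers. The share over all tested genes was 18.9%. The part of any other cells in the histone levels was not tested.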

How the data were processed

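The authors deposited a table of normalized counts (a signal that is never negative) for 13252 genes in 10 libraries. Every value was a whole multiple of its library's smallest value, within 0.001, for 100% of values, which recovers whole reads. Per the labels' protocols, column-purified and DNase-treated total RNA went into a stranded pico-input kit. Per the submitters' processing notes, HISAT2 2.0.4, HTSeq, DESeq2 and the build mm10 were used. For the annotation, strand setting and gene filter: not given in the sources used here. Pairs of libraries of a group differed by more than sampling noise (chi-square per degree of freedom 3.65 to 54.7 over 20 pairs).

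Genes with a mean of at least 10 were tested with limma 3.58.1 (R 4.3.3, trend and robust) on log2(normalized count + 1), group as the only term, Benjamini-Hochberg over 10718 genes, and changes are Helios+ minus Helios−. edgeR 4.0.16 and DESeq2 1.42.0 were run on the recovered reads, and the scripts were tested on simulated data. Equal replicate numbers were taken to pair samples: deviations from the group means correlated at 0.48, 0.19, 0.39, 0.16 and 0.15 for numbers 1 to 5. The largest correlations with a different number were 0.10, −0.0008, 0.12, 0.10 and 0.12, so for numbers 4 and 5 the match was little higher. A fit with the number as a block stands beside results that it moves, and it rests on this pairing. The same-number correlations were also taken over histone genes. Over the 46 tested histone genes they were −0.15, −0.41, −0.26, 0.05 and 0.64. Over the 44 other than Hist1h2ab and Hist1h3b, which were left out after their values were seen, they were 0.31, 0.14, 0.19, 0.21 and 0.41. All 59 members matched 1 GENCODE M21 gene (GRCm38). The members and lists were chosen with earlier results of these data known. The text names every called member, the 2 members of each class with the highest counts, the Hist2, Hist3 and Hist4 genes, the tested genes of the polyadenylated list and the 3 smallest p-values of each other list. Hist1h1a, Hist1h2ab, Hist1h3b, Hist1h3a and Hist1h2bk, Hist1h4a, Hist1h2bg, Hist1h2ai, H2afj and the remaining called chaperones were added after their values were seen.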

Additional observations from a re-analysis of the deposited data

Results flagged for a closer look

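Each of 102 groups (the tested histone genes and the 5 class sums, in Helios− and in Helios+) was examined for a library far from the other 4. In 5 groups 1 library stood apart, where chance gives about 1 in 20. Helios− library 3 was high for Hist1h2ad, at 83.0 normalized counts against 16.4 to 26.3 in the other Helios− libraries, and for Hist1h2ai, at 43.7 against 20.1 to 25.8. Helios+ library 4 was high for Hist1h3d, at 53.4 against 13.6 to 24.3. Helios+ library 5 was high for Hist2h3b, at 41.7 against 27.6 to 30.4, and Helios+ library 2 was low for Hist1h1a, at 46.0 against 56.4 to 59.7. Without Helios− library 3, Hist1h2ai was called higher, and without Helios+ library 2, Hist1h1a was.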

How the results depend on the processing

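No called gene changed direction under the alternatives run, but 7 histone genes that were not called had a change of the other sign under at least 1: Hist1h1c, Hist1h1e, Hist1h2bf, Hist1h3b, Hist1h4i, Hist1h4n and Hist3h2ba. Of the 15 called histone genes, Hist1h1b, Hist1h2af, Hist1h2ak, Hist1h2bb, Hist1h2bn, Hist1h3c and Hist1h4f passed the threshold under every alternative in which they were tested, and 8 lost the call under at least 1. The numbers of histone genes called higher were, in the order reported, 15 in all and 2, 2, 4, 4 and 3 in the classes H1, H2a, H2b, H3 and H4. With the replicate block they were 25 in all, 4 in H2a, 7 in H2b and 6 in H4, and edgeR with the block, added after seeing the data, gave 23 in all, 7 in H2b and 5 in H4. The block also moved replacement variants called higher from 3 to 5, processing genes called lower from 1 to 5 and all genes called lower from 1143 to 1979 (1817 by edgeR with the block); it ended no call of a histone gene. A minimum mean of 50 left 7 in all, 1 each in H2b, H3 and H4, 4 of those with under 50% shared sequence (10 as reported), 9 of 14 S phase and 6 of 12 G2 and M phase genes, since fewer genes were tested. Quantile normalization gave 10 in all (12.9% of all genes), 2 in H2b, 1 in H4, 6 with under 50% shared sequence, 9 S phase genes and 1 chaperone called lower instead of 3. For histone genes called lower, 0 as reported, and for those of the polyadenylated list, quantile normalization, DESeq2, the replicate block and edgeR with the block gave 1, which was Hist2h2be. In the polyadenylated list 1 gene was called higher without a filter and 1 with the block. Without both libraries of a number, an alternative added after seeing the data, number 1 left 1 in H1, 2 in H3 and 1 in H4, number 2 left 2 in H3 and 1 in H4, number 3 gave 8 in H2b, number 4 left 8 in all, 1 in H1, 2 in H2b, 1 in H3, 4 with under 50% shared sequence and 748 genes called lower, and number 5 left 2 in H3. Leaving out single libraries gave 11 to 25 histone genes called higher and 0 to 1 lower, 1 to 3 in H1, 2 to 4 in H2a, 3 to 8 in H2b, 2 to 5 in H3, 2 to 5 in H4 and 6 to 15 with under 50% shared sequence. It gave 0 to 2 genes of the polyadenylated list higher and 0 to 1 lower, 0 to 1 variants lower, 1 to 3 processing genes lower and 1 to 3 chaperones lower. The cause of these shifts was not tested, apart from the smaller number of genes or samples where that was the alternative. Median changes and class ratios moved by less than the spread between replicates. Histone genes took about 0.1% of the reads, so depth limits the low members most.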
